A study of Mus musculus with 23 samples.

Results

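A set of 10 carrier genes that bring the products of protein digestion into and through the enterocyte, Slc15a1, Slc6a19, Slc6a20a, Slc7a9, Slc3a1, Slc3a2, Slc7a7, Slc7a8, Slc7a15 and Slc16a10, were examined out of 55416 gene rows. They were chosen by name, by their role in peptide and amino acid transport, with earlier results of these data known. All 10 were found by symbol, and all 10 passed the filter on low counts. RNA-seq read counts were available for 23 mice, labelled female, of the strain C57BL/6JRccHsd, 1 library per mouse, each made from a scraping of the upper (proximal) small intestine. The GAL42 group (n = 12) ate a diet whose sugar part was galactose and glucose, at 16% of the energy each, and the GLU42 group (n = 11) had glucose alone, at 32% of the energy. Both groups began the diet at 21 days of age, ate it for 3 weeks and were sampled at 42 days of age. The comparison asks how carrier transcripts differ when galactose takes the place of part of the dietary glucose after weaning.

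Dietary protein reaches the enterocyte as short peptides and free amino acids, made by pancreatic proteases and by peptidases of the brush border. Carriers of the apical membrane, which faces the gut lumen, take them up with protons or sodium or by exchange, and carriers of the basolateral membrane pass amino acids on to the blood. Several of these carriers are pairs of a light chain that moves the substrate and a heavy chain that brings it to the membrane, joined by a disulfide bond. Peptide and amino acid uptake is a main task of the villus enterocyte of the upper small intestine. In whole scrapings, the transcripts below cannot be assigned to that cell alone.

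The libraries held 15382583 to 17174721 counts in genes. GAL42 replicate 12 went against its label, with 225 counts of Y-linked genes where no other library had more than 1. It was kept in all values unless stated otherwise, and diet differences and pooled correlations are also given without it. This mouse was the lowest GAL42 library for Slc15a1, Slc6a19, Slc7a9, Slc3a1 and Slc7a7, and for the summed apical carriers. The lowest GAL42 values printed below for these are therefore its values. Libraries also differed in how levels relate to transcript length. This length slope, the change of a library's relative log2 level per log2 unit of transcript length, averaged -0.0289 ± 0.0553 in GAL42 and 0.0315 ± 0.0450 in GLU42 libraries (SD). The enterocyte marker score, a mean of log2 counts-per-million (CPM) over 10 markers, spanned 11.8 to 12.2 in GAL42 and 11.7 to 12.2 in GLU42 libraries. Summed T cell markers lay at 45.7 to 107 CPM in GAL42 and 20.1 to 91.1 CPM in GLU42 libraries, with 7 of 7 at positive differences. Of these, 5 had an unadjusted p under 0.05 by edgeR, as had 1157 of all 13405 genes in that direction. Summed smooth muscle markers lay at 33.6 to 98.4 CPM and 32.3 to 141 CPM, with 5 of 5 at negative differences. Of all genes, 6632 had positive and 6773 negative differences. B and plasma cell markers (4 of 4) were higher too, and Paneth (6 of 6), fibroblast (5 of 5) and tuft markers (4 of 4) lower. Goblet, crypt, enteroendocrine and macrophage markers held both signs. Summed distal markers lay at 355 to 614 CPM in GAL42 and 399.8 to 558 CPM in GLU42 libraries. Of the 4 tested, Slc10a2 and Fgf15 had negative and Slc51a and Slc51b positive differences. In whole scrapings, fewer cells of a type and less RNA per cell cannot be told apart, and the part of these cells in the results was not tested.

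Slc15a1, Slc6a19 and Slc3a1 were chosen as a set of 3 carriers whose levels varied closely together across mice, as shown further on. The 250 bases before their RefSeq start sites (build GRCm38.p6, which is not the build of the counts) are shown for this reason, 5′ to 3′ on the gene's strand, with matches to the searched motifs in capitals. Both strands were searched for CAAAGTCCA, which is a motif of the factor HNF4, and for CAAAG alone. Further motifs were TTTAT for the CDX factors, AGATAA for factors of the GATA family, and GGGCGG, known as the GC box. TATAAA, known as the TATA box, was searched too. TTTAT read on the reverse strand can overlap TATAAA, and CAAAG lies inside CAAAGTCCA.
Slc15a1, chr14:121505255-121505504, minus strand: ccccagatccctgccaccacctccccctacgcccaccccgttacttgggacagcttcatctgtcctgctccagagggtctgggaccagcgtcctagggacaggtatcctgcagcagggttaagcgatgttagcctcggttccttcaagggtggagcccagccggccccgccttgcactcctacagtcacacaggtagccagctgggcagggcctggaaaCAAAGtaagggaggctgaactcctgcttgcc
Slc6a19, chr13:73692637-73692886, minus strand: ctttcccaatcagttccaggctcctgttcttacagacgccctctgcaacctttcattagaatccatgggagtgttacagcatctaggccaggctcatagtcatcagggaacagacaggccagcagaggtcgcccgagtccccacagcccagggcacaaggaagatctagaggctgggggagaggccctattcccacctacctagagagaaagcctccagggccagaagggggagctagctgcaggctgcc
Slc3a1, chr17:85028097-85028346, plus strand: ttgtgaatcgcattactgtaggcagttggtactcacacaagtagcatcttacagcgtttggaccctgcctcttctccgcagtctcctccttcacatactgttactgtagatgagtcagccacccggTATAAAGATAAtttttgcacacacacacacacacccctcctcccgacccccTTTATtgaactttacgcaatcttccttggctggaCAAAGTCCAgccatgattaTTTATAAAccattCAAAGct
The Slc3a1 window held CAAAGTCCA from 39 to 31 bases before the start, a motif found in 0.384% of all 32851 promoter windows of this length. It also held a further CAAAG, as well as TTTAT (37.3% of windows), AGATAA (9.99%) and TATAAA (12.4%). The Slc15a1 window held only CAAAG, from 31 to 27 bases before the start (48.6% of windows), and the Slc6a19 window held none of these motifs. No searched motif stood in all 3 windows. Over the 16 windows of the 10 carriers, 10 held CAAAG, 7 the GC box (32.7% of all windows), 6 TTTAT, 4 AGATAA and 2 TATAAA. Some windows of Slc7a7 and of Slc7a9 overlap, so the same match can count more than once. By gene, 7 of 10 carriers held CAAAG, 6 the GC box, 5 TTTAT, 3 AGATAA and 2 TATAAA. These are matches of letters, not sites of binding.

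All 10 carriers had lower mean levels in GAL42 than in GLU42 libraries, by 0.05 to 0.33 on the log2 scale, but none passed the test of the diets. edgeR's quasi-likelihood test with Benjamini-Hochberg adjustment over 13405 genes called 0 of 10, and 0% of all genes tested. The smallest adjusted p among the carriers was 0.176. The median log2 difference, GAL42 minus GLU42, was -0.18 over the 10 carriers and -0.0017 over all genes. Of all tested genes 50.5% had a difference below 0. At an unadjusted p under 0.05 there were 4 of 10 carriers, Slc16a10, Slc15a1, Slc7a7 and Slc7a15, all lower on galactose, as were 5.72% of all genes. DESeq2 called 0 of 10 as well (0.985% of all genes), as did limma-voom (0%) and its version with weights for sample quality (1.25%). The carriers vary together between mice, so their shared direction is not 10 separate observations.

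**Figure D1:**
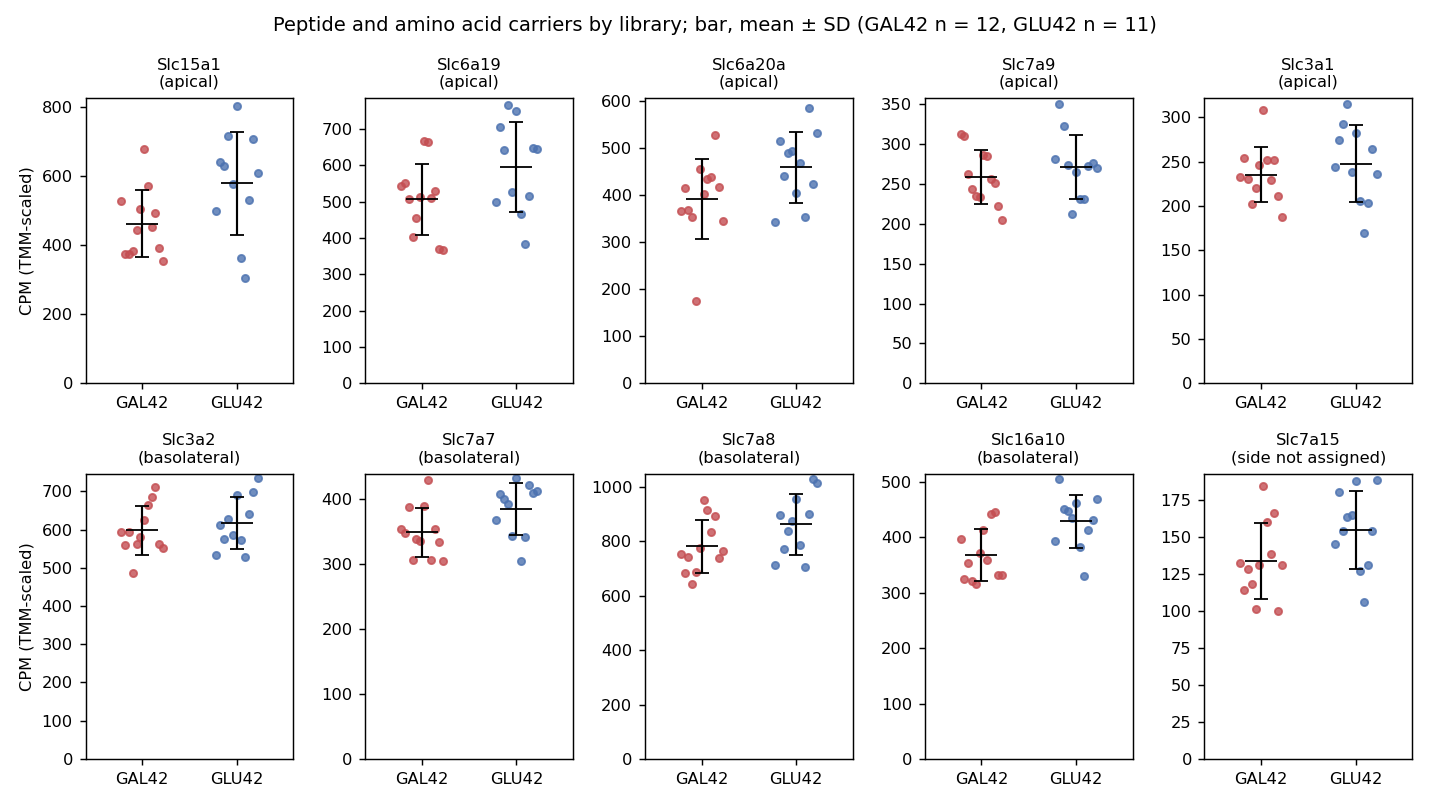
Level of each carrier (y axis, CPM scaled by trimmed mean of M-values) in each library (points, in order of deposit), with mean and SD as bars, for GAL42 (n = 12, left) and GLU42 (n = 11, right). The groups overlap in all 10 panels, and the GAL42 mean is the lower one in each, from Slc15a1 (462 against 579 CPM) to Slc3a2 (598 against 618 CPM).

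Among the apical carriers, Slc15a1 and the sodium-coupled Slc6a19 and Slc6a20a had the larger differences, and the cystine carrier Slc7a9 with its heavy chain Slc3a1 the smaller ones. Slc15a1 (ENSMUSG00000025557, chromosome 14) encodes PEPT1, the proton-coupled carrier of di- and tripeptides. It had 354 CPM in the lowest, 447 in the median and 677 in the highest GAL42 library, against 306, 609 and 801 CPM in GLU42 libraries. The groups overlapped, with both the lowest and the 3 highest libraries being GLU42, and 11 of 12 GAL42 libraries lay below the GLU42 median. The means were 462 ± 97.2 CPM in GAL42 and 579 ± 149 CPM in GLU42 libraries (SD, n = 12 and 11), a log2 difference of -0.33 ± 0.13 (SE, adjusted p = 0.258 by edgeR).

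Slc6a19 (ENSMUSG00000021565, chromosome 13) encodes B0AT1, the main sodium-dependent carrier of neutral amino acids in the brush border. Its lowest, median and highest levels were 366, 511 and 665 CPM in GAL42 and 384, 641 and 765 CPM in GLU42 libraries. The 3 highest libraries were GLU42 and the 2 lowest GAL42. Its means were 506 ± 98.2 CPM in GAL42 and 595 ± 124 CPM in GLU42 libraries (SD), a log2 difference of -0.23 ± 0.11 (SE, adjusted p = 0.352 by edgeR).

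Slc6a20a (ENSMUSG00000036814, chromosome 9) encodes a sodium-dependent carrier of proline and other imino acids. It had 175, 407 and 527 CPM in the lowest, median and highest GAL42 library, against 342, 467 and 585 CPM in GLU42 libraries. The lowest value belonged to GAL42 replicate 5, well under every other library. The means were 391 ± 84.9 CPM in GAL42 and 458 ± 74.8 CPM in GLU42 libraries (SD), and without that library the log2 difference was -0.16 in place of -0.23 ± 0.12 (SE, adjusted p = 0.378 by edgeR). Its near copy Slc6a20b, with 3.18 ± 1.05 CPM in GAL42 and 4.60 ± 2.21 CPM in GLU42 libraries, was far lower. How reads that match both copies were counted is not given in the sources used here, so the counts of both are uncertain. Slc6a20a also overlaps Gm47171 on the same strand by 2794 bases (2958 counts of Gm47171 against 158265 of Slc6a20a over all libraries). On the opposite strand it overlaps Ccr9 by 447 bases (1462 counts) and some genes with far fewer counts.

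Slc7a9 and Slc3a1 form the apical exchanger that takes up cystine and dibasic amino acids, and loss of either causes cystinuria in humans. Slc7a9 (ENSMUSG00000030492, chromosome 7), the light chain, had 205, 253 and 312 CPM in the lowest, median and highest GAL42 library and 212, 273 and 351 CPM in GLU42 libraries. Slc3a1 (ENSMUSG00000024131, chromosome 17), the heavy chain, had 188, 231 and 308 CPM in GAL42 and 169.6, 244 and 315 CPM in GLU42 libraries. The groups overlapped over nearly their whole ranges for both genes. Slc7a9 averaged 258 ± 33.9 CPM in GAL42 and 271 ± 39.9 CPM in GLU42 libraries, and Slc3a1 235 ± 31.0 CPM and 248 ± 43.2 CPM (SD). The log2 differences were -0.07 ± 0.08 for Slc7a9 and -0.07 ± 0.09 for Slc3a1 (SE, adjusted p = 0.722 and 0.742 by edgeR). Slc3a1 overlaps the opposite-strand gene Prepl by 767 bases, and Prepl held 6179 counts over all libraries against 90483 for Slc3a1. How the counting treated strand is not given in the sources used here.

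Among the basolateral carriers, the aromatic amino acid carrier had the largest difference and the heavy chain almost none. Slc16a10 (ENSMUSG00000019838, chromosome 10) encodes TAT1, through which aromatic amino acids leave the cell by facilitated diffusion. It had 316, 357 and 446 CPM in the lowest, median and highest GAL42 library, against 331, 435 and 506 CPM in GLU42 libraries. The 5 highest libraries were GLU42 and the 3 lowest GAL42. Its means of 367 ± 46.8 CPM in GAL42 and 429 ± 47.7 CPM in GLU42 libraries (SD) gave a log2 difference of -0.22 ± 0.07, with the smallest unadjusted p of the 10 carriers (0.00419, adjusted p = 0.176 by edgeR).

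Slc7a7 (ENSMUSG00000000958, chromosome 14) is the light chain of the basolateral exchanger that sends out dibasic amino acids in return for neutral ones and sodium. The gene overlaps Oxa1l on the opposite strand by 232 bases (31675 counts of Oxa1l against 137278 of Slc7a7 over all libraries). It had 304, 343 and 429.7 CPM in the lowest, median and highest GAL42 library, against 305, 400.2 and 432 CPM in GLU42 libraries. The ranges were almost the same, but 11 of 12 GAL42 libraries lay below the GLU42 median. Slc7a8 (ENSMUSG00000022180, chromosome 14) is the light chain of LAT2, an exchanger of neutral amino acids, and had 644, 758 and 951 CPM in GAL42 and 706, 875 and 1029.6 CPM in GLU42 libraries. Its 3 lowest libraries were GAL42 and its 3 highest GLU42. Slc7a7 averaged 349 ± 37.9 CPM in GAL42 and 385 ± 40.1 CPM in GLU42 libraries, and Slc7a8 782 ± 97.3 CPM and 862 ± 111 CPM (SD). The log2 differences were -0.14 ± 0.07 for Slc7a7 and -0.14 ± 0.08 for Slc7a8 (SE, adjusted p = 0.326 and 0.391 by edgeR).

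Slc3a2 (ENSMUSG00000010095, chromosome 19), the CD98 heavy chain that serves both of these light chains, had 487, 586 and 712 CPM in the lowest, median and highest GAL42 library and 529, 611 and 734 CPM in GLU42 libraries. Its means were 598 ± 63.6 CPM in GAL42 and 618 ± 68.0 CPM in GLU42 libraries (SD), nearly the same. Its log2 difference of -0.05 ± 0.07 (SE, adjusted p = 0.783 by edgeR) was the nearest to 0 of the 10. Slc7a15 (ENSMUSG00000020600, chromosome 12) encodes a carrier described in rodents as preferring aromatic amino acids, and was assigned to neither membrane here. It had 99.7, 131 and 184 CPM in GAL42 and 106, 154 and 188 CPM in GLU42 libraries, with means of 134 ± 25.5 CPM and 155 ± 26.1 CPM (SD), a log2 difference of -0.21 ± 0.10 (SE, adjusted p = 0.344 by edgeR).

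The 2 sides of the cell were set apart by their summed levels. The 5 apical carriers summed to 1457, 1892 and 2338 CPM in the lowest, median and highest GAL42 library, against 1443, 2291 and 2558 CPM in GLU42 libraries. The 4 basolateral carriers summed to 1757, 2069.8 and 2405 CPM in GAL42 and 1906, 2303 and 2629 CPM in GLU42 libraries. On both sides the groups overlapped. The median log2 difference was -0.23 over the apical and -0.14 over the basolateral genes. The log2 ratio of the apical to the basolateral sum averaged -0.19 ± 0.13 in GAL42 and -0.10 ± 0.16 in GLU42 libraries (SD), which is a gap smaller than the spread between mice. Together the 10 carriers took 0.408 ± 0.0490% of the counts in GAL42 and 0.460 ± 0.0586% in GLU42 libraries (SD).

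Per kilobase of the longest annotated transcript, the basolateral chains Slc3a2 and Slc7a8 were the most abundant. Slc3a2 stood at 213 CPM per kilobase in GAL42 and 219.6 in GLU42 libraries, and Slc7a8 at 191 and 211. Slc15a1 (143 in GAL42, 179 in GLU42), Slc7a7 (153 and 169), Slc6a19 (121 and 142), Slc7a9 (124 and 130.1), Slc6a20a (100.4 and 118) and Slc3a1 (104 and 109) followed. Slc7a15 (70.1 and 81.0) and Slc16a10 (68.1 and 79.5) were the least abundant. Several neighbours in this order did not differ beyond their spread, with Slc15a1 above Slc7a7 in 11 of 23 libraries, Slc6a19 above Slc7a9 in 11, Slc6a20a above Slc3a1 in 13 and Slc7a15 above Slc16a10 in 13. The order held more often for Slc7a9 over Slc6a20a (16 of 23), Slc3a2 over Slc7a8 (19), Slc7a8 over Slc15a1 (20) and Slc7a7 over Slc6a19 (22). Of the neighbours, only Slc3a1 and Slc7a15 kept their order in all 23 libraries.

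The light chains were then set against their heavy chains within each library, which makes the comparison independent of scaling. Slc7a8 was lower relative to Slc3a2 in GAL42 libraries. Its log2 ratio to Slc3a2 averaged 0.38 ± 0.10 in GAL42 and 0.48 ± 0.06 in GLU42 libraries (SD, n = 12 and 11), a difference of -0.094 ± 0.033 (SE). The two-sided permutation test with 100000 resamples gave p = 0.0118, adjusted to 0.0354 over 3 ratios. The ratio ran from 0.28 to 0.60 in GAL42 and from 0.42 to 0.58 in GLU42 libraries, so the groups overlapped. The Slc7a8 transcript is longer than that of Slc3a2 (4084 against 2813 bases), and with the length slope of each library taken off the ratio the difference was -0.035 (permutation p = 0.253). The slope was taken off without a term for diet. Because the slope itself differed between the diets, this step can also take off part of a diet difference. Slc7a7 to Slc3a2 averaged -0.78 ± 0.16 in GAL42 and -0.68 ± 0.12 in GLU42 libraries (SD; difference -0.095 ± 0.060, SE; permutation p = 0.128, adjusted p = 0.192). Slc7a9 to Slc3a1 averaged 0.13 ± 0.15 and 0.14 ± 0.22 (SD; difference -0.0050 ± 0.080, SE; permutation p = 0.952).

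Single libraries and covariates moved these values, but none of the alternatives run called a carrier. Over the 23 fits that each left out 1 library, all 10 differences stayed below 0. The number of carriers with an unadjusted p under 0.05, 4 with all libraries, ran from 1, without GLU42 replicate 6 (6.23% of all genes were lower at that threshold), up to 7, as without GLU42 replicate 8 (8.17%), the lowest GLU42 library for 7 of the 10. Without GAL42 replicate 12 it was 2 (6.31% of all genes), Slc15a1 and Slc16a10, and 10 of 10 lay below 0 (52.8% of all genes). Slc15a1 then stood at -0.30, Slc6a19 at -0.20, Slc7a7 at -0.13 and Slc16a10 at -0.22. Without GAL42 replicate 7, the 1 library whose removal alone gave calls among all genes (1.64%), Slc15a1 stood at -0.39 and 0 of 10 carriers were called.

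With the length slope as a covariate, 8 of 10 carriers lay below 0 (48.6% of all genes) and 1, Slc7a7 at -0.17, had an unadjusted p under 0.05 (2.8% of all genes were lower at that threshold). Slc7a9 then stood at 0.0020, Slc3a1 at 0.029 and Slc7a15 at -0.09. These transcripts, at 2086, 2271 and 1907 bases, were shorter than the median of all tested genes (3228 bases). Because the slope itself differed between the diets, this covariate can also take off part of a diet difference. Whether transcript length itself moved these values was not tested.

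**Figure D2:**
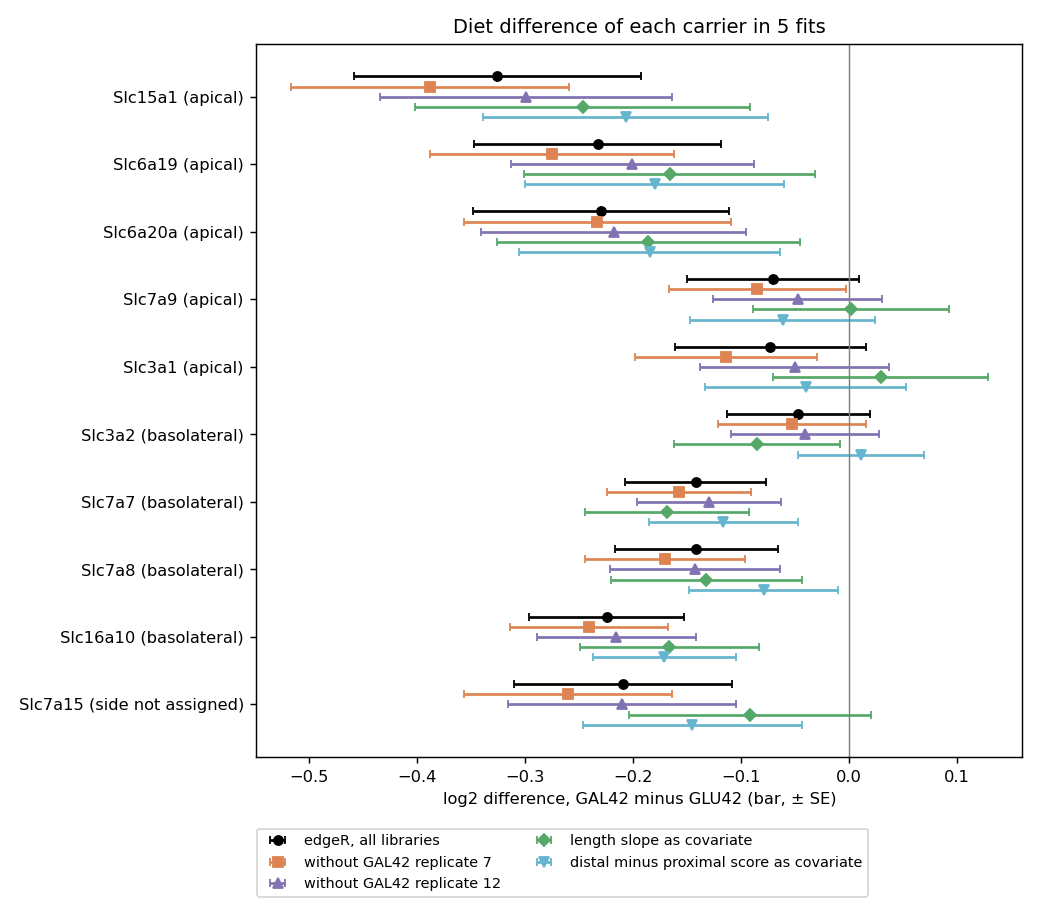
Log2 difference of each carrier (x axis, GAL42 minus GLU42, bars ± SE) in 5 edgeR fits, marked by colour and shape. Slc15a1, Slc6a19, Slc6a20a, Slc7a7, Slc7a8, Slc16a10 and Slc7a15 lie below 0 in all 5, while Slc7a9 and Slc3a1 cross 0 with the length slope and Slc3a2 with the position score.

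The carriers were also fitted with a score of gut region. This position score was taken as the mean log2 CPM of 4 distal markers minus that of 5 proximal markers. Every marker had the same weight, also those at very low levels. Among the distal ones, Slc10a2 averaged 0.63 CPM in GAL42 and 0.88 CPM in GLU42 libraries, and Fgf15 1.27 ± 2.21 and 2.27 ± 2.07 CPM (SD). The proximal marker Cybrd1 averaged 1.88 and 2.50 CPM. The score is uncertain for this reason. It ran from -2.54 to -0.458 in GAL42 and from -3.15 to -0.257 in GLU42 libraries, with means of -1.90 ± 0.56 and -1.51 ± 0.85 (SD). With this score as a covariate, 9 of 10 carriers lay below 0 (50.6% of all genes), with Slc15a1 at -0.21, Slc7a8 at -0.08 and Slc3a2 at 0.011. Slc16a10, at -0.17, was then the 1 carrier with an unadjusted p under 0.05 (4.67% of all genes were lower at that threshold). With the enterocyte score as a covariate all 10 lay below 0, and Slc15a1 stood at -0.35. In that fit the median was -0.19 over the carriers and 0.0044 over all genes. There, 5 of 10 had an unadjusted p under 0.05 by edgeR, namely Slc15a1, Slc16a10, Slc6a19, Slc7a15 and Slc7a7. The share of all genes below 0 or at that threshold is not given here for this fit.

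The carriers varied together between mice of the same diet. With diet means taken off, all 45 pairs of carriers had a positive Pearson r of log2 CPM over 23 libraries, with a median of 0.61. Of these, 36 pairs had a permutation p under 0.05 after adjustment over the 45. The share among pairs of other genes is not given here, so these counts do not set the carriers apart. Many other genes reached such values, as r = 0.47 of Slc7a9 with Slc15a1 was rank 799 among 11561 genes. The median stayed between 0.56 and 0.64 when each library was left out. The closest pairs were Slc6a19 with Slc3a1 (r = 0.90), the light chain Slc7a8 with its heavy chain Slc3a2 (0.90), Slc15a1 with Slc6a19 (0.87) and Slc15a1 with Slc3a1 (0.85, adjusted permutation p = 7.5e-05 for each, at the smallest p that 100000 resamples can give). Without the 2 libraries farthest from the median of the first gene these were 0.85, 0.88, 0.82 and 0.77, and Spearman's rho over all libraries was 0.87, 0.88, 0.86 and 0.78. The light chain Slc7a9 followed its heavy chain Slc3a1 less closely (0.61). Pairs within the apical side had a median r of 0.54, pairs within the basolateral side 0.64 and pairs across the sides 0.60. The lowest values belonged to Slc7a9 with Slc7a8 (0.17), Slc6a20a with Slc7a9 (0.18), Slc6a20a with Slc7a7 (0.20) and Slc6a20a with Slc15a1 (0.23). Whole libraries lay high or low. In GAL42 replicates 4, 5, 11 and 12 and GLU42 replicate 8 none of the 10 carriers was above the median of all libraries. In GLU42 replicates 2 and 4 all 10 were. The enterocyte score was 11.87, 12.02, 11.84 and 11.82 in those GAL42 libraries and 11.72 in GLU42 replicate 8. It was 11.98 and 12.22 in GLU42 replicates 2 and 4. TMM factors of the same libraries were, in this order, 1.04, 0.995, 1.04, 1.07, 1.09, 0.967 and 0.945. GLU42 replicates 1, 5 and 9 had 4, 5 and 7 carriers above the median. Their scores were 11.75, 11.86 and 11.80 and their factors 1.05, 1.05 and 1.01. The part of either measure in the shared variation was not tested.

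**Figure D3:**
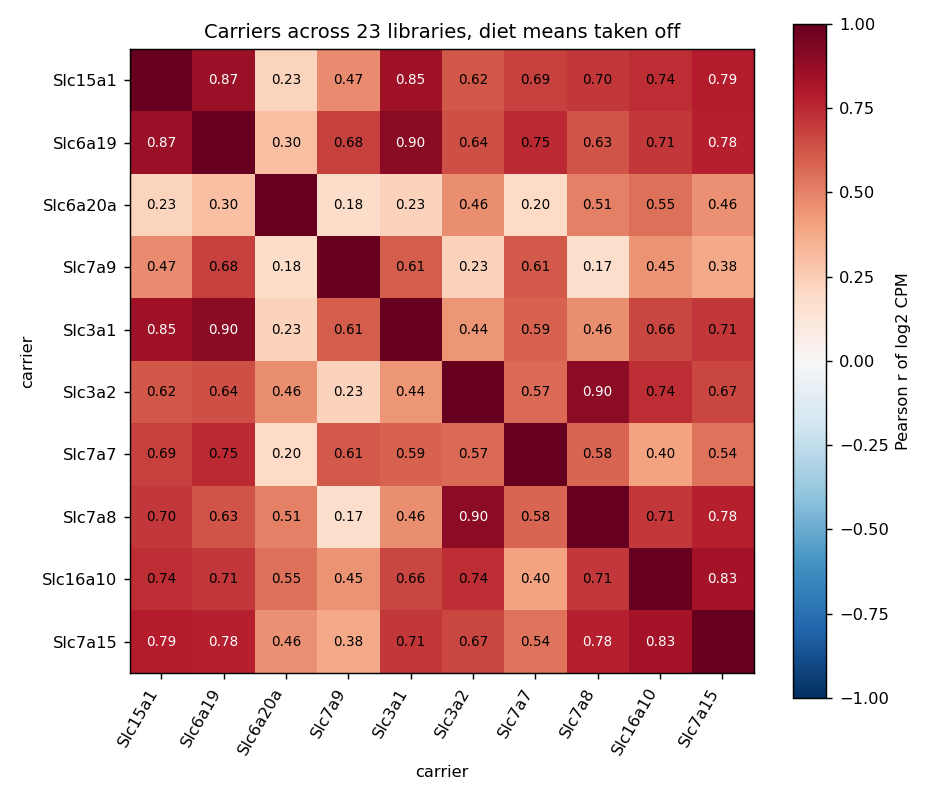
Pearson r between each pair of carriers over 23 libraries, from log2 CPM with diet means taken off (colour and printed value, scale from -1 to 1). All 45 pairs are above 0, the highest being Slc6a19 with Slc3a1 at 0.90 and the lowest Slc7a9 with Slc7a8 at 0.17.

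Slc15a1 was set against Mep1a and Anpep, genes of peptidases of the brush border. Mep1a encodes the alpha subunit of meprin, a metalloprotease of the brush border, and had 117, 144 and 198 CPM in the lowest, median and highest GAL42 library, against 108, 183 and 332 CPM in GLU42 libraries. The 4 highest libraries were GLU42. Anpep encodes aminopeptidase N, which takes single residues off peptides, and had 5278, 7236 and 8955 CPM in GAL42 and 5962, 9222 and 14897 CPM in GLU42 libraries. The 6 highest libraries were GLU42, and the spread was wider in that group (SD 1028 CPM in GAL42 and 2694 CPM in GLU42). Neither passed the diet test by edgeR (log2 differences -0.47 ± 0.14 and -0.33 ± 0.13, SE, adjusted p = 0.162 and 0.237), and without GAL42 replicate 12 they stood at -0.46 and -0.32.

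Mice with more Slc15a1 had more of both peptidases. Over all 23 libraries Slc15a1 and Anpep had r = 0.82 and Spearman's rho = 0.83 (permutation p = 1e-05 for each, the smallest that 100000 resamples can give, adjusted p = 0.0002 over 20 relations). Slc15a1 and Mep1a had r = 0.70 (permutation p = 0.00014, adjusted p = 0.0007) and rho = 0.71 (permutation p = 0.00012, adjusted p = 0.0012). Without GLU42 replicates 6 and 8, the libraries farthest from the median of Slc15a1, r was 0.77 for Anpep and 0.63 for Mep1a. With diet means taken off, r was 0.79 and 0.62 (rho 0.72 and 0.53, adjusted permutation p = 0.0002 and 0.00596 for r). Without GAL42 replicate 12 the pooled r was 0.82 for Anpep and 0.68 for Mep1a.

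Within the diets the relation did not pass the test in GAL42 mice and passed it in GLU42 mice. Among 12 GAL42 libraries r was 0.53 for Anpep and 0.35 for Mep1a (permutation p = 0.0739 and 0.265, adjusted p = 0.148 and 0.389). Among 11 GLU42 libraries it was 0.89 and 0.74 (permutation p = 3e-05 and 0.00995, adjusted p = 0.0002 and 0.0263). Whether r differed between the diets was not tested. Anpep and Mep1a spanned a narrower range of levels in GAL42 libraries.

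Measures of the libraries were set against Slc15a1 in the same way. The position score had r = 0.54 with Slc15a1 over all libraries (rho 0.53, permutation p = 0.00751 and 0.00917, adjusted p = 0.025 and 0.0294), but 0.42 without GLU42 replicates 6 and 8 (permutation p = 0.0621), where it no longer passed the test. With each single library left out, r stayed between 0.44 and 0.62. It was -0.029 in GAL42 and 0.74 in GLU42 libraries (permutation p = 0.93 and 0.0105), a gap that was not tested. By rank the relation did not pass in GLU42 libraries, where rho was 0.51 (permutation p = 0.114). With diet means taken off, r was 0.49 and rho 0.31 (permutation p = 0.019 and 0.156). With the position score taken off both genes, Slc15a1 had r = 0.75 with Anpep and 0.53 with Mep1a. With the enterocyte score taken off both, r was 0.82 and 0.68, and with the length slope 0.83 and 0.64. The length slope itself had r = 0.37 with Slc15a1 (permutation p = 0.0828) and the enterocyte score 0.18 (permutation p = 0.403), and neither passed after adjustment (adjusted p = 0.151 and 0.504).

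**Figure D4:**
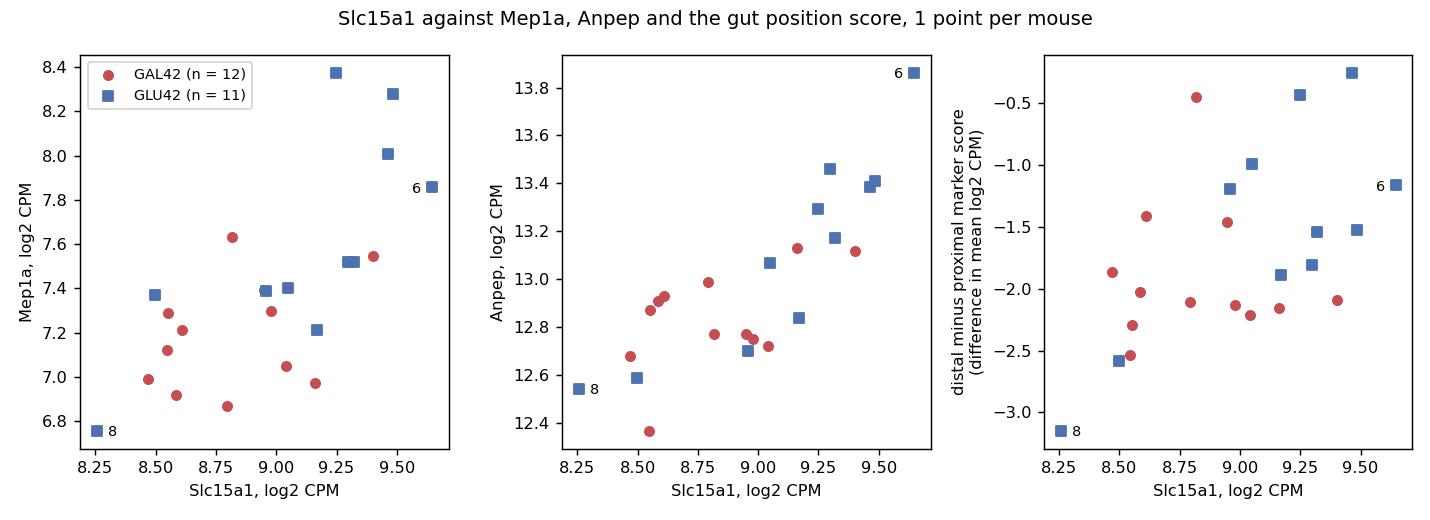
Slc15a1 (x axis, log2 CPM) against Mep1a, Anpep (log2 CPM) and the position score (difference in mean log2 CPM of distal and proximal markers), 1 point per mouse, with GAL42 as circles and GLU42 as squares. Anpep follows Slc15a1 most closely (r = 0.82), and GLU42 replicates 6 and 8, marked by number, lie at the ends of the Slc15a1 range.

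Among 11561 named genes of at least 1 CPM, those most like Slc15a1 across the 23 libraries with diet means taken off were ranked by r, as a description. The 8 genes outside the carriers with the highest r were Fam118a (0.94), Lap3 (0.91), Dpp4 (0.88), Hpgd (0.86), Aspa (0.85), Mpp1 (0.85), Clec2h (0.85) and Inpp5a (0.85). Lap3 is a leucine aminopeptidase of the cytosol, Dpp4 a dipeptidyl peptidase of the brush border, Hpgd a prostaglandin dehydrogenase and Aspa an aspartoacylase. Slc6a19 stood at rank 4 and Slc3a1 at rank 10, while Anpep was at rank 30 (0.79) and Mep1a at rank 257 (0.62). Slc6a20a was at rank 2568 (0.23). All these genes share the same libraries and their scaling.

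Other peptide and amino acid carriers gave the wider setting. Of 48 listed, taken by gene family, 26 passed the filter on counts, 21 of them with differences below 0 and 5 above (50.5% of all genes were below 0), with a median of -0.10. edgeR called 0 of 26, with 3 at an unadjusted p under 0.05 in either direction, as had 14.4% of all genes, and DESeq2 and both forms of limma-voom called 0 too. Slc43a2, encoding LAT4, a basolateral carrier through which branched-chain and aromatic amino acids leave the cell, was the most abundant, with 695 ± 63.6 CPM in GAL42 and 774 ± 121 CPM in GLU42 libraries (SD). Its log2 difference was -0.16 ± 0.08 (SE, adjusted p = 0.350 by edgeR), and 12 of 12 GAL42 libraries lay below the GLU42 median. The taurine carrier Slc6a6 had 222 ± 30.1 and 239 ± 30.1 CPM in GAL42 and GLU42 libraries (-0.11 ± 0.08), and the proton-coupled amino acid carrier Slc36a1 156 ± 49.4 and 167 ± 37.7 CPM (-0.10 ± 0.14). Slc38a10 (-0.05), Slc38a2 (-0.04), Slc7a1 (-0.05), Slc38a1 (0.05) and Slc38a7 (0.01) were nearer to 0.

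**Figure D5:**
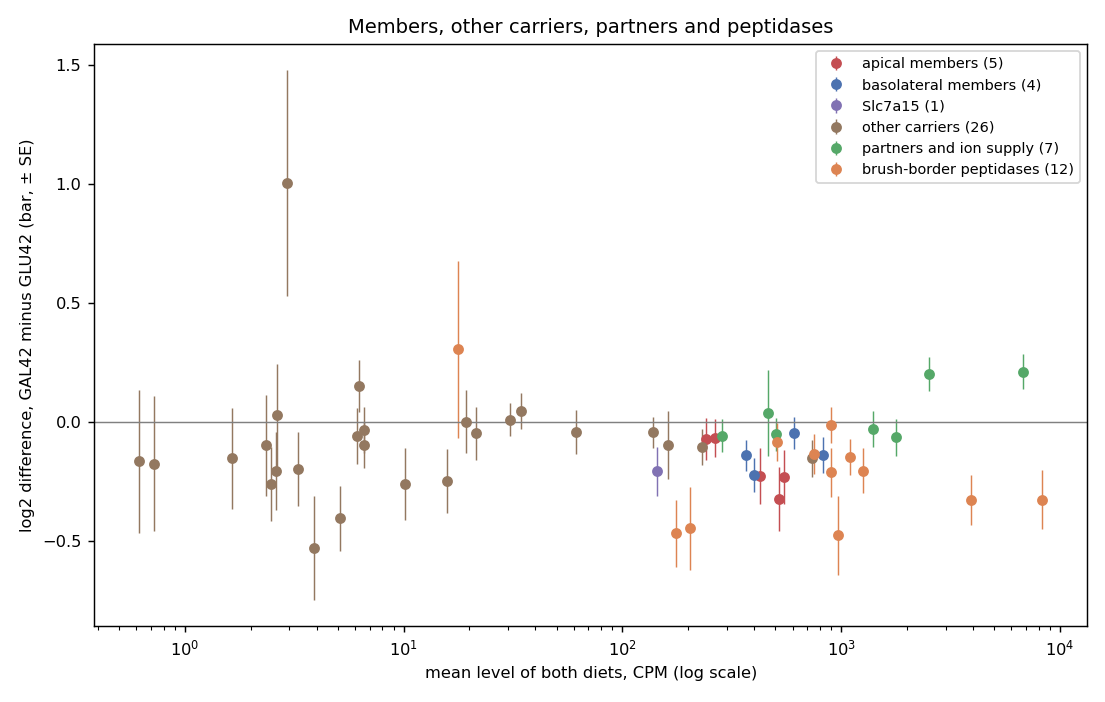
Log2 difference (y axis, GAL42 minus GLU42, bars ± SE) against mean level of both diets (x axis, CPM, log scale) for the 10 carriers and the tested other carriers (26), partners (7) and brush-border peptidases (12). The 10 carriers lie between -0.33 and -0.05, and Atp1b1, a sodium pump gene among the partners, lies above 0, at 0.20.

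Genes that supply the carriers with sodium and protons had differences near or above 0. Atp1b1, a subunit of the basolateral sodium pump, had 2684 ± 372 CPM in GAL42 and 2336 ± 211 CPM in GLU42 libraries (SD), a log2 difference of 0.20 ± 0.07 (SE, unadjusted p = 0.0108 and adjusted p = 0.217 by edgeR). Slc9a3, the apical sodium-proton exchanger that restores the proton gradient PEPT1 uses, had 469 ± 168 CPM and 457 ± 154 CPM (0.04 ± 0.18). Slc9a2 (-0.06), Slc9a3r1 (-0.03) and Pdzk1 (-0.05), a further exchanger and a pair of scaffold proteins of the brush border, were near 0. edgeR called 0 of the 7 partner genes tested, with 2 at an unadjusted p under 0.05, both higher in GAL42. Of all genes, 14.4% had such a p in either direction.

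Of 12 brush-border peptidases 11 had differences below 0, against 50.5% of all genes (median -0.21). edgeR called 0, with 7 lower at an unadjusted p under 0.05, against 5.72% of all genes. Ace stood at -0.33 ± 0.10, Dpp4 at -0.14 ± 0.08 and Mep1b at -0.15 ± 0.08 (SE). DESeq2 called Mep1a (adjusted p = 0.0498), beside 0.985% of all genes, and edgeR without GAL42 replicate 7 called Ace (adjusted p = 0.0422), beside 1.64% of all genes. Of 11 transcription factors of enterocytes 9 had differences below 0, with a median of -0.08 and 0 called by edgeR. Hnf4a had 692 ± 63.4 CPM in GAL42 and 759.9 ± 72.8 CPM in GLU42 libraries (SD; log2 difference -0.14 ± 0.06, SE, unadjusted p = 0.0332 and adjusted p = 0.309 by edgeR). Sp1, named here because it was the other factor with an unadjusted p under 0.05, stood at -0.20 ± 0.06 and Cdx2 at 0.01 ± 0.07 (SE).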

How the data were processed

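Per the submitters' processing notes, STAR and HTSeq on GRCm39 made the counts. Versions, annotation release and strand setting: not given in the sources used here. Raw read counts were deposited by the authors for 55416 genes per mouse, with 5 rows that name no gene, which held 13.5% of reads and were left out. Counts in genes per library ran from 15382583 to 17174721. CPM, counts per library of TMM-scaled size, were computed from the deposited counts. Symbols and transcript lengths came from GENCODE M21 by Ensembl identifier. The members and lists were chosen with earlier results of these data known. Named genes were all members, Mep1a, Anpep, other carriers and partners of at least 20 CPM, Ace, Dpp4, Mep1b, Hnf4a and Cdx2, and the 8 genes most like Slc15a1. A few genes under this rule are not reported here. Replicates are numbered within each diet in order of deposit. Pairs of libraries within a diet differed by more than sampling noise (chi-square per degree of freedom 12.9 to 51.3).

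The fit was edgeR 4.0.16 (R 4.3.3), with filterByExpr (13405 genes), TMM and diet as the only term over all libraries, and was tested on simulated counts. SEs are those of the log2 differences. Correlations used log2 CPM with a prior count of 2. Permutation tests were two-sided with 100000 resamples. Alternatives were other scalings and filters, DESeq2 1.42.0, limma 3.58.1, covariates, and leaving out each library.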

Additional observations from a re-analysis of the deposited data

How the results depend on the processing

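The number of genes called by edgeR, 0 (with 767 lower and 1157 higher at an unadjusted p under 0.05), was 132 with DESeq2, 167 with limma-voom quality weights, 0 to 219 when each library was left out and 321 without GAL42 replicates 7 and 12 together, an alternative added after seeing the data, as was the position score taken off both genes of a correlation. The 10 carriers and the 26 other carriers had 0 calls under every alternative run. The differences of Slc7a9 (0.0020) and Slc3a1 (0.029) turned with the length slope as covariate, and that of Slc3a2 (0.011) with the position score. In GAL42 libraries alone, the correlation of Slc15a1 fell below the threshold with Mep1a (0.35) and Anpep (0.53). When each library was left out it stayed between 0.65 and 0.74 for Mep1a and between 0.79 and 0.84 for Anpep. The ratio of Slc7a9 to Slc3a1 ran from -0.039 to 0.026 when each library was left out, and that of Slc7a8 to Slc3a2 from -0.11 to -0.084, but it was -0.035 with the length slope taken off. The cause of these changes was not tested. No paired analysis was possible because the replicate numbers used here only follow the order of deposit, and the labels give each mouse a number of its own and tie no mouse of one diet to a mouse of the other.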

Other observations

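A few relatives of the carriers had unadjusted p-values under 0.05 at low levels, and none passed by edgeR. Slc15a3, which encodes a peptide and histidine carrier of lysosomes, had 4.39 ± 0.989 CPM in GAL42 and 5.82 ± 1.33 CPM in GLU42 libraries (SD, n = 12 and 11), a log2 difference of -0.41 ± 0.14 (SE, unadjusted p = 0.00633, adjusted p = 0.200 by edgeR). It lay below the GLU42 median in 12 of 12 GAL42 libraries. Slc15a2, the peptide carrier PEPT2 best known from kidney, had 3.93 ± 2.85 CPM in GAL42 and 1.96 ± 1.55 CPM in GLU42 libraries (log2 difference 1.002 ± 0.47, SE, unadjusted p = 0.0442, adjusted p = 0.336 by edgeR), with wide overlap. Slc6a20b stood at -0.53 ± 0.22 (SE, adjusted p = 0.258 by edgeR). These 3 were named after their values were seen.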
